A study of Bos taurus with 8 samples.

Results

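Proteoglycans are proteins that carry long sulfated sugar chains, and 10 genes that encode proteoglycans of the extracellular matrix, or close relatives of them, were compared between bovine intramuscular fat (IMF) and subcutaneous fat (SF) preadipocyte clones. They were chosen by family and by gene symbol: DCN, BGN, ASPN, LUM, FMOD, PRELP, OGN and PODN belong to the small leucine-rich family, and VCAN and HSPG2 encode large proteoglycans. All 10 were among the 18871 named genes of the count table and among the 18339 genes tested, those whose counts in the 8 clones added up to 20 or more. All 10 also matched a protein-coding gene of the RefSeq list for ARS-UCD2.0, the bovine assembly that the authors used, and the positions given here come from that list.

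The samples were cultured clones, each grown from 1 cell of the stromal vascular fraction, the non-adipocyte cells released when fat tissue is digested. The tissue came from adult male Angus crossbred cattle (steers), and no treatment separated the groups: 4 clones (IMF1 to IMF4) came from fat dissected out of the longissimus muscle and 4 (SF1 to SF4) from fat under the skin. By the paper's account each clone of a group came from a separate tissue sample and was picked for growth, for adipogenic potential and for a fibroblast-like shape. Each library thus stands for 1 selected cell lineage and not for a depot. Whether IMF and SF clones shared animals is not given in the sources used here, the labels and the methods differ in the number of steers, and the methods take RNA from growing cells whereas the series' design text places adipogenic induction before sequencing. Between 19654917 and 29308882 counts on named genes were available in the IMF clones, and between 19979899 and 24868233 in the SF clones. A level of 3 counts, taken as the limit of detection, was worth between 0.0981 CPM (IMF2) and 0.165 CPM (SF4), where CPM is the count scaled by the normalized library size. This limit takes only counting error into account.

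The labels were set beside marker genes of the cells that a stromal vascular fraction can hold. All 12 preadipocyte and stromal markers were measured, and their summed level ran from 21950 to 22940 CPM in the IMF clones and from 36690 to 40780 CPM in the SF clones, most of it from the collagen gene COL1A1. CD34, one of these markers, was at 3 counts or fewer in every SF clone and at 10.5 ± 0.522 CPM (mean ± SD, n = 4) in the IMF clones, while PPARG, THY1 and COL1A1 were lower in IMF past the thresholds defined below. The 10 skeletal muscle markers summed to between 666.5 and 756.6 CPM in the IMF clones and to 22.6, 2.20, 8.04 and 24.7 CPM in SF1 to SF4. MYOD1 had the highest mean of them over the 8 clones, all 10 were higher in IMF past the thresholds, and MYOD1, MYOG, ACTA1, CKM and CDH15 were at 3 counts or fewer in every SF clone. Of 12 endothelial markers, 11 were higher in IMF past the thresholds, with sums from 225.2 to 276.4 CPM in the IMF clones and from 29.1 to 40.6 CPM in the SF clones. CLDN5, the 1 marker not called, had the highest mean over the 8 clones, CDH5 had the highest mean in IMF, and KDR, TIE1, ESAM, SOX18 and CD93 were at 3 counts or fewer in every SF clone. The part of these markers in the differences below was not tested, and in bulk RNA fewer cells that express a gene and less of its RNA per cell cannot be told apart.

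Small leucine-rich proteoglycans have a core of leucine-rich repeats that binds collagen fibrils, and most carry chondroitin, dermatan or keratan sulfate chains. They set the diameter and spacing of fibrils, and several bind growth factors such as transforming growth factor beta. Large proteoglycans fill the space between fibrils, bind hyaluronan, or build the basement membrane that surrounds adipocytes, muscle fibers and vessels. Fat cell precursors are among the main sources of this matrix in adipose tissue.

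Most of the family did not pass the test between the depots, and ASPN and FMOD were the members with a difference after adjustment over all genes. A gene was called when edgeR's quasi-likelihood test gave a Benjamini-Hochberg adjusted p-value below 0.05 together with a log2 fold change (IMF over SF) of 1 or more in either direction. Among the 10 members, 1 was called, ASPN, which was lower in IMF, against 8.82% of all genes tested in either direction and 4.04% in that direction. The number called higher in IMF was 0, against 4.78% of all genes, and it was also 0 at an unadjusted p-value under 0.05 and with DESeq2. At that unadjusted p-value 3 members were lower in IMF, namely ASPN, FMOD and VCAN, and no share of all genes was taken there. By the adjusted p-value alone, 2 members differed, ASPN and FMOD, against 25.8% of all genes. FMOD was the single member whose 4 IMF values all lay on one side of its 4 SF values, which held for 32.1% of all genes. Set against these background shares, 1 call among 10 members was close to them. The other counts in either direction that have such a share were below it. The median log2 fold change of the members was −0.14, against −0.03 for all genes tested.

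**Figure D1:**
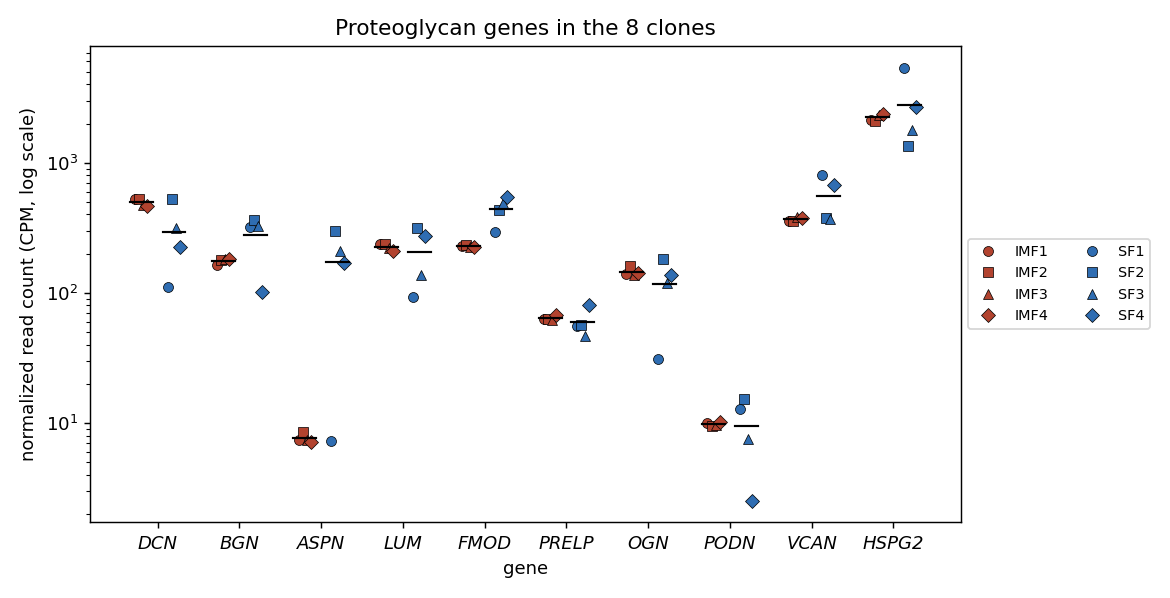
Expression of the 10 members in each of the 8 clones, as CPM on a log axis, with 1 symbol for each clone, IMF clones in red, SF clones in blue and horizontal lines at the group means. For every gene the 4 IMF clones lie close together while the SF clones are spread, and in ASPN the clone SF1 lies with the IMF clones, at 7.29 CPM.

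Decorin, biglycan and asporin form the class of small leucine-rich proteoglycans that is closest in sequence. Asporin lacks the chain attachment of its relatives and carries a run of aspartate residues. ASPN (chromosome 8, 84067280 to 84092649) stood at 7.39, 8.50, 7.39 and 7.14 CPM in IMF1 to IMF4 and at 7.29, 299.9, 209.5 and 170.9 CPM in SF1 to SF4. Thus SF2, SF3 and SF4 were high, and SF1 was as low as the IMF clones, so that the groups overlapped. These levels rested on 142 counts in SF1 and on 3102 to 5992 counts in the other SF clones, so the low level of SF1 was well above the floor. On average ASPN was 22.6-fold lower in IMF, with a log2 fold change of −4.50 (SE 0.90, 95% interval −6.55 to −2.45, adjusted p = 0.00746 in edgeR's quasi-likelihood test). Without SF1 the log2 fold change was −4.90 with an adjusted p-value of 1.15e-05. Over the 14 alternatives the adjusted p-value ranged from 1.88e-08 to 0.0511 and was under 0.05 in 13.

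DCN (chromosome 5, 21014373 to 21053400) encodes decorin, which coats collagen fibrils and binds transforming growth factor beta. It was measured at 524.3, 528.8, 472.7 and 461.4 CPM in IMF1 to IMF4 and at 111.8, 528.9, 315.7 and 226.4 CPM in SF1 to SF4. SF2 reached the level of the highest IMF clones, and the other SF clones lay below all IMF clones. The log2 fold change of 0.75 (SE 0.39, 95% interval −0.15 to 1.65) did not pass the test (adjusted p = 0.203). It depended on SF2, without which it was 1.19 with an adjusted p-value of 0.0328, the lowest over the alternatives, whose highest was 0.357.

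BGN (X chromosome, 36728478 to 36742281) encodes biglycan, the nearest relative of decorin. Its levels were 164.0, 177.8, 183.4 and 180.6 CPM in IMF1 to IMF4 and 319.8, 365.1, 325.0 and 101.4 CPM in SF1 to SF4. Here 3 SF clones lay above all IMF clones, and SF4 lay below them. For BGN the log2 fold change was −0.66 (SE 0.34, 95% interval −1.43 to 0.12, adjusted p = 0.195). Without SF4 it was −0.93 with an adjusted p-value of 0.000517, still short of the fold threshold, and over the alternatives the adjusted p-value reached 0.371.

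DCN and BGN leaned in opposite directions, and their ratio can be read within each clone. Per length, as TPM (counts divided by the deposited gene length, then scaled to a fixed total), the ratio of DCN to BGN was 3.02, 2.81, 2.43 and 2.41 in IMF1 to IMF4 and 0.330, 1.37, 0.917 and 2.11 in SF1 to SF4. All 4 IMF clones thus had a higher ratio than any SF clone. This ratio was chosen after the values of both genes were seen, and no test was made of it.

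Lumican, fibromodulin and PRELP belong to the class whose members can carry keratan sulfate. FMOD (chromosome 16, 1122157 to 1132183), whose product binds the same region of collagen as lumican and takes part in fibril assembly, stood at 229.1, 232.9, 226.4 and 226.5 CPM in IMF1 to IMF4. In SF1 to SF4 it stood at 291.2, 432.1, 488.7 and 547.5 CPM, so all 4 SF clones lay above all 4 IMF clones. FMOD was 1.92-fold lower in IMF, with a log2 fold change of −0.94 (SE 0.18, 95% interval −1.35 to −0.54, adjusted p = 0.0056 in edgeR's quasi-likelihood test), just short of the fold threshold. Without SF1, the SF clone closest to the IMF level, it was −1.10 and past both thresholds. A long non-coding gene, LOC107133214, overlaps FMOD in the annotation and was not analysed here. The sources differ on whether the libraries kept strand, so reads of overlapping genes could have been shared.

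LUM (chromosome 5, 20971292 to 20981075) encodes lumican, a regulator of fibril diameter. Its levels were 238.1, 239.4, 219.5 and 210.8 CPM in IMF1 to IMF4 and 92.8, 314.6, 137.6 and 273.4 CPM in SF1 to SF4. The SF clones fell on both sides of the IMF clones, with SF2 and SF4 above and SF1 and SF3 below. Its log2 fold change was 0.15 (SE 0.35, 95% interval −0.64 to 0.94, adjusted p = 0.795), and it turned to −0.09 without SF1 and to −0.03 without SF3. PRELP (chromosome 16, 1238715 to 1252743), whose product has a basic end that binds heparan sulfate and can anchor basement membranes to connective tissue, had the smallest spread of the members among the SF clones. It ranged from 61.4 to 67.1 CPM in the IMF clones and from 47.0 to 81.0 CPM in the SF clones, and its log2 fold change was 0.08 (SE 0.15, 95% interval −0.27 to 0.44, adjusted p = 0.734), or −0.05 without SF3. That interval leaves out differences of the size seen in FMOD.

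OGN (chromosome 8, 84019267 to 84034853) encodes osteoglycin, also called mimecan, a small member known from bone, muscle and fat. It was measured at 138.6, 161.4, 136.4 and 142.5 CPM in IMF1 to IMF4 and at 31.0, 182.7, 119.5 and 138.0 CPM in SF1 to SF4. SF1 was low, and the other SF clones lay around the IMF level. The log2 fold change of 0.30 (SE 0.43, 95% interval −0.68 to 1.28, adjusted p = 0.66) became −0.02 without SF1. PODN (chromosome 3, 93159704 to 93183037) encodes podocan, a family member that binds collagen and is known from smooth muscle. It was the least abundant member per length, at 9.48 to 10.2 CPM in the IMF clones and 12.8, 15.2, 7.59 and 2.54 CPM in SF1 to SF4. Its mean hardly differed between the groups (log2 fold change 0.04, SE 0.44, 95% interval −0.96 to 1.05, adjusted p = 0.957), while SF1 and SF2 were above all IMF clones and SF3 and SF4 below them. It was −0.09 without SF3 and −0.27 without SF4.

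The large members were highest in SF1, the clone in which DCN, LUM, OGN and ASPN were lowest among the SF clones. VCAN (chromosome 7, 83356741 to 83476755) encodes versican, a chondroitin sulfate proteoglycan that binds hyaluronan. It stood at 356.7, 356.7, 379.9 and 378.4 CPM in IMF1 to IMF4 and at 804.8, 374.5, 370.9 and 670.4 CPM in SF1 to SF4. SF1 and SF4 were high, and SF2 and SF3 lay within the range of the IMF clones. With a log2 fold change of −0.59 (SE 0.25, 95% interval −1.17 to −0.01), VCAN did not pass after adjustment (adjusted p = 0.124). Without SF1 it was −0.36 (adjusted p = 0.259, in a range over the alternatives from 0.053 to 0.259).

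HSPG2 (chromosome 2, 130867527 to 130977472) encodes perlecan, a heparan sulfate proteoglycan of the basement membrane. It stood at 2138, 2088, 2313 and 2362 CPM in IMF1 to IMF4 and at 5379, 1333, 1769 and 2663 CPM in SF1 to SF4. SF1 was the highest of the 8 clones and SF2 the lowest. HSPG2 had a log2 fold change of −0.32 (SE 0.39, 95% interval −1.22 to 0.57, adjusted p = 0.594), which turned to 0.21 without SF1. In the annotation, HSPG2 overlaps the protein-coding genes LOC132343458 and LDLRAD2, which were not analysed here. Markers of mural cells, the smooth muscle cells and pericytes of vessel walls, were set beside these levels. The 5 measured genes of 8 listed summed to 6628, 2245, 1291 and 4310 CPM in SF1 to SF4 and to between 1097 and 1225 CPM in the IMF clones. ACTA2, the smooth muscle actin gene, made up most of this sum and, at 6491, 2057, 1079 and 3977 CPM in SF1 to SF4, had the same order among the SF clones as VCAN, which the other 4 markers did not. Among the SF clones MYH11 and MCAM, like ACTA2, were highest in SF1, and CSPG4 and ABCC9 were lowest in it. Of the markers, 2 of the 5 were called higher and 2 lower in IMF, and none was at 3 counts or fewer in all 8 clones. The part of these genes in the levels of VCAN and HSPG2 was not tested.

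Per length, the order of the members was better resolved in IMF than in SF. In the IMF clones DCN was the most abundant, at 341.9 ± 33.8 TPM (mean ± SD, n = 4 throughout). It was followed by HSPG2 at 247.0 ± 23.4, LUM at 194.6 ± 19.1 and FMOD at 143.7 ± 9.68 TPM. Next came BGN at 128.5 ± 9.91 and OGN at 111.8 ± 5.87 TPM. VCAN at 48.9 ± 4.08 and PRELP at 28.3 ± 1.39 TPM were lower, and ASPN at 5.34 ± 0.426 and PODN at 3.25 ± 0.246 TPM were the lowest. The ranges of neighbours in this order did not overlap except for FMOD and BGN, and there FMOD was the higher gene in 4 of 4 clones.

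In the SF clones the order was far less certain. HSPG2 had the highest mean, 299.6 ± 190.3 TPM, before FMOD at 271.6 ± 63.8, DCN at 206.6 ± 137.8 and BGN at 205.4 ± 97.3 TPM. LUM followed at 173.3 ± 94.0 and ASPN at 122.3 ± 93.0 TPM, ahead of OGN at 91.1 ± 52.8 and VCAN at 71.4 ± 24.6 TPM. Each of the first 7 of these genes overlapped in range with the next, so the order of neighbours was not resolved, although HSPG2 and FMOD lay above OGN and VCAN in range. Only PRELP at 26.0 ± 4.27 and PODN at 3.21 ± 2.01 TPM were separated from the gene above them. Among all genes tested, ranked by mean TPM, ASPN stood at percentile 49.8 in IMF and at percentile 96.1 in SF. DCN stood at 98.5 and 97.6, and HSPG2 at 98.0 and 98.2. PODN was near the middle of all genes in both depots, at 41.1 and 41.0.

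The composition of the family differed among the SF clones more than its sum did. The 10 genes together took 0.410%, 0.403%, 0.439% and 0.411% of all counts in IMF1 to IMF4 and 0.676%, 0.39%, 0.376% and 0.421% in SF1 to SF4. SF1 was the high clone, and the log2 ratio of the mean shares, IMF over SF, was −0.16 with SF1 and 0.07 without it. In summed TPM, which gives long genes such as HSPG2 less weight, SF1 was not high. The sums were 1323, 1208, 1326 and 1156 TPM in IMF1 to IMF4 and 1294, 1885, 1435 and 1269 TPM in SF1 to SF4.

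The balance between small and large members made SF1 and SF2 the extremes. The 8 small members summed to 3.42, 3.61, 3.03 and 2.95 times the TPM of VCAN and HSPG2 in IMF1 to IMF4, and to 0.896, 7.86, 4.65 and 2.79 times in SF1 to SF4. In SF1, HSPG2 alone made up 44.7% of the summed TPM of the family, against 8.45% in SF2 and 18% to 21.3% in the IMF clones. DCN made up 25.8% to 28.7% in the IMF clones and 5.77%, 20.8%, 15.7% and 10.7% in SF1 to SF4. All 4 IMF clones were above all SF clones in this share. FMOD made up 11.4% to 11.5% in the IMF clones and 13.7% to 23.6% in the SF clones. ASPN made up 0.407% to 0.465% in the IMF clones, 0.384% in SF1, and 12%, 10.6% and 8.25% in SF2 to SF4.

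**Figure D2:**
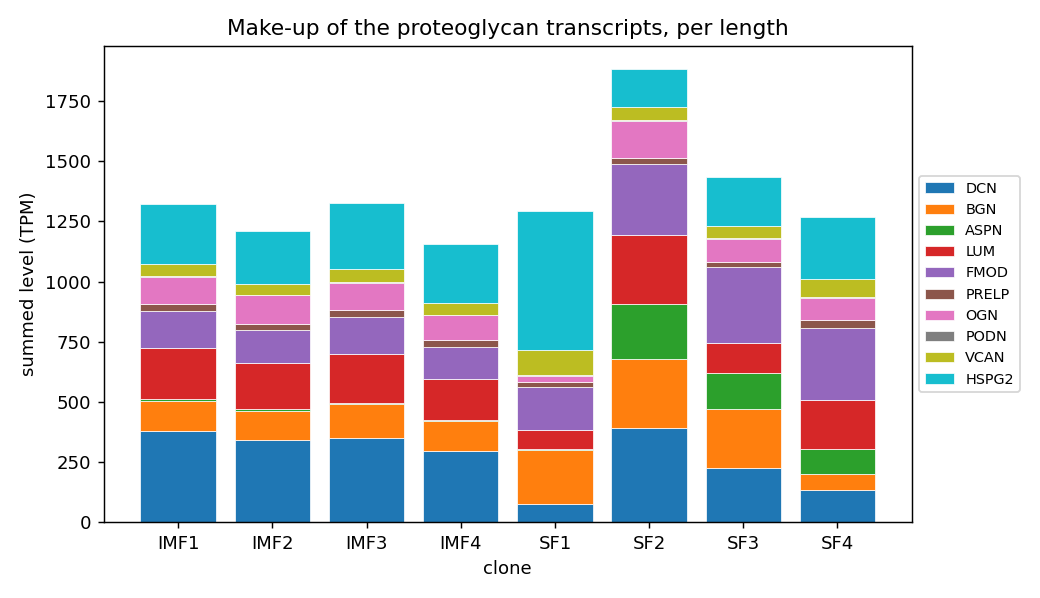
TPM of each of the 10 members, stacked to their summed TPM, in each of the 8 clones. The 4 IMF bars are alike in make-up, whereas HSPG2 takes 44.7% of the summed TPM in SF1 and 8.45% in SF2. ASPN is a visible part of SF2, SF3 and SF4 alone.

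The IMF clones were nearly alike in these genes, and the SF clones were not. The ratio of the highest to the lowest IMF clone was at most 1.19 for any member, in ASPN. Among the SF clones the same ratio was 41.2 for ASPN, 5.98 for PODN, 5.89 for OGN, 4.73 for DCN and 4.04 for HSPG2. It was 3.60 for BGN, 3.39 for LUM, 2.17 for VCAN, 1.88 for FMOD and 1.73 for PRELP. The standard deviation of log2 CPM was larger among the SF than among the IMF clones in 10 of 10 members, and in 76.4% of the 9339 genes with a mean of at least 10 CPM. Its median over the members was 0.0789 in IMF and 0.871 in SF. Over the 9339 genes it was 0.0885 and 0.186, so the members' spread was close to that of other genes in IMF and far above it in SF. No test was made of this difference in spread, which was noticed after the values were seen.

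SF1 and SF2 departed most from the other clones of their depot in these genes. Set against the mean of the other 3 SF clones on the log2 scale, 5 of the 10 members deviated by at least 1 in SF1 and 6 in SF2, against 1 in SF3, 3 in SF4 and 0 in each IMF clone. Over the 9339 genes the share that deviated by as much was 5.24% for SF1 and between 2.7% and 2.75% for the other SF clones. It was 3.39%, 4.94%, 2.08% and 2.09% for IMF1 to IMF4. In SF1 the deviation was −4.90 for ASPN, −2.22 for OGN, −1.59 for DCN and −1.29 for LUM, while HSPG2 deviated by 1.54. Each clone is set against a mean that holds the others, so SF1 adds to the deviations of SF2. In SF2 the same genes deviated the other way, by 2.23 for ASPN, 1.19 for OGN, 1.40 for DCN, 1.05 for LUM and −1.14 for HSPG2. In SF4 the widest deviations were −2.13 for PODN and −1.73 for BGN. In the whole transcriptome SF1 stood out less, with a mean distance of 125.1 log2 CPM units to the other SF clones, against 112.1 to 114.2 for SF2 to SF4 and 114.4 to 127.4 within IMF.

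Several members lie next to each other in the genome. LUM and DCN are neighbours on chromosome 5 with 33298 bases between them, and both were lowest in SF1 and highest in SF2 among the SF clones. OGN, OMD, ASPN and ECM2, all of the small leucine-rich repeat family or close to it, follow each other on chromosome 8 with gaps of 2838, 14553 and 14587 bases. FMOD and PRELP lie 106532 bases apart on chromosome 16, with OPTC 3549 bases beyond PRELP.

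The chromosome 8 cluster did not differ as a block. OMD, which encodes osteomodulin, stood at 17.8 to 22.0 CPM in the IMF clones and at 7.70, 20.9, 25.4 and 11 CPM in SF1 to SF4. ECM2, a matrix protein gene, stood at 39.6 to 44.6 CPM in the IMF clones and at 22.7, 86.2, 57.4 and 34.3 CPM in SF1 to SF4. All 4 genes were lowest in SF1 among the SF clones, but ASPN alone was higher in SF2, SF3 and SF4 than in every IMF clone. The log2 fold change was 0.24 for OMD (adjusted p = 0.647) and −0.26 for ECM2 (adjusted p = 0.646), neither past the test. The cluster lies inside the span of CENPP, a centromere protein gene from 83951574 to 84187170, which stood at a mean of 7.07 CPM with a log2 fold change of −0.18 (adjusted p = 0.419). Shared reads between CENPP and the genes inside it could not be told apart.

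**Figure D3:**
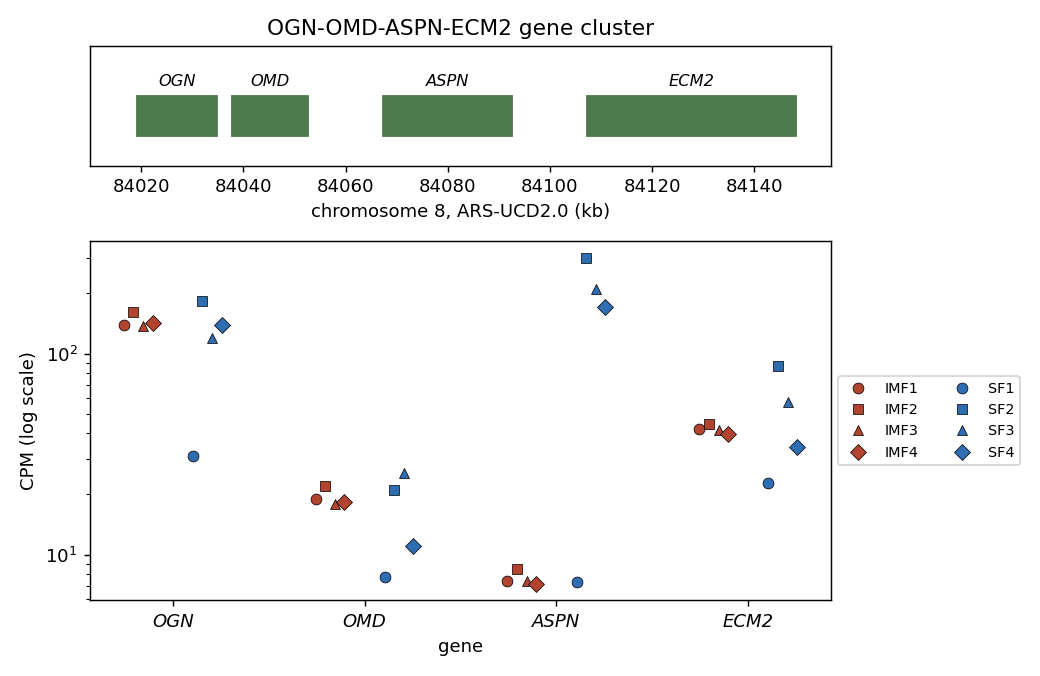
Position on chromosome 8 of ARS-UCD2.0, in kb, of OGN, OMD, ASPN and ECM2 (top), and the CPM of each gene in the 8 clones on a log axis (bottom, IMF in red and SF in blue). ASPN alone shows a group of SF clones, SF2 to SF4 at 170.9 to 299.9 CPM, far above the IMF clones.

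Beyond the members, 20 protein-coding genes that are among the nearest 2 on either side of a member were tested. Of these, 2 were past both thresholds, both higher in IMF, or 10.0% against 8.82% of all genes. BTG1, an anti-proliferative gene 958733 bases from DCN, stood at 73.1 ± 2.52 CPM in IMF against 35.6 ± 4.70 CPM in SF (log2 fold change 1.04, SE 0.10, adjusted p = 0.000179, higher in 4 of 4 IMF clones). Without SF2 it was 0.99, under the fold threshold. EDIL3, which encodes an integrin ligand of the matrix and lies 366684 bases from VCAN, stood at 13.2 ± 2.04 CPM in IMF. It had 0 to 2 counts in the SF clones, so it was at least 89.2-fold higher in IMF against a floor of 3 counts in each SF clone (adjusted p = 9.29e-06). VCAN itself, as given above, did not pass the test.

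The genes whose pattern over the 8 clones was most like that of ASPN were POSTN and LOC101907241. Likeness was the root mean square difference of log2 CPM after centring, over 9338 genes with a mean of at least 10 CPM, and it was 0.63 for POSTN and 0.67 for LOC101907241. POSTN encodes periostin, a matrix protein of collagen-rich and healing tissues. It stood at 11, 14, 13.6 and 8.52 CPM in IMF1 to IMF4 and at 6.52, 297.2, 118.5 and 422.1 CPM in SF1 to SF4. As with ASPN, SF1 lay far below the other SF clones, and here also below every IMF clone. LOC101907241 stood at 1.32 to 2.28 CPM in the IMF clones and at 4.31, 33.0, 36.7 and 32.1 CPM in SF1 to SF4. Both were picked by their likeness to a called gene, so their difference between the depots follows from that choice and is not given as a test.

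Other proteoglycan genes, and genes that handle hyaluronan or that build, modify or cut proteoglycans, were taken from 9 lists with 115 genes, of which 93 were tested and the others were not analysed here. Of the 93 genes, 6 were called higher in IMF, 11 were called lower, and 76 were not called. The called share was 18.3%, against 8.82% of all genes, of which 4.78% were called higher and 4.04% lower. By the adjusted p-value alone 31 of the 93 differed, against 25.8% of all genes in either direction. Of these 31, 21 were lower in IMF, and no share of all genes was taken for that direction. The same shares of all genes apply to the counts of each list below. The median log2 fold change was −0.22, against −0.03 for all genes. With scaling by library totals alone, 6 were called higher and 9 lower. The difference between these shares and the background was not tested.

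Among 6 other genes of the small leucine-rich family, edgeR called 0, with 2 lower in IMF at an unadjusted p-value under 0.05 and 1 called lower by DESeq2. ECM2, given above, was the most abundant. Of 7 other matrix proteoglycans, 1 was called higher and 1 lower. ACAN, which encodes the cartilage proteoglycan aggrecan, stood at 2.46 ± 0.384 CPM in IMF and had 0, 3, 1 and 5 counts in SF1 to SF4, a mean of 0.117 CPM that is under the floor of each SF clone (adjusted p = 0.00221, higher in 4 of 4 IMF clones). With so few SF counts the size of this difference was not well set, and the fitted log2 fold change of 4.39 (SE 0.68) was 5.18 without SF4. SRGN encodes serglycin, a proteoglycan of secretory granules in blood cells. It stood at 8.63 ± 3.83 CPM in IMF against 24.9 ± 12.6 CPM in SF (log2 fold change −1.53, SE 0.44, adjusted p = 0.0333), with overlapping groups. Its adjusted p-value ranged from 0.00385 to 0.0936 over the alternatives, and its call was lost without IMF1, IMF2, IMF3, SF1 or SF4. All 8 counts of SRGN were even numbers, as in 8.60% of the genes tested, a feature that the sources used here do not mention. The 7 measured of 8 leukocyte markers summed to 26.5 to 45.9 CPM in the IMF clones and to 54.0 to 92.0 CPM in the SF clones, with PTPRC the most abundant, 1 called higher and 1 lower in IMF, and their part in the level of SRGN was not tested. COL18A1, which encodes the basement membrane collagen that carries heparan sulfate, had the highest mean of the list over the 8 clones. It stood at 123.4 ± 2.68 CPM in IMF and at 101.5, 1.65, 3.29 and 3.69 CPM in SF1 to SF4, so SF1 lay near the IMF clones. Its log2 fold change of 2.17 (SE 1.19, adjusted p = 0.223) became 5.42 without SF1, with an adjusted p-value of 1.68e-05. With a replicate block the log2 fold change was 4.39 (adjusted p = 0.054 in edgeR). The adjusted p-value was up to 0.351 in the other alternatives.

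Of 13 cell surface proteoglycans, 3 were called, all lower in IMF, or 23.1% against 8.82% of all genes. By the adjusted p-value alone 5 were lower and 1 higher, against 25.8% of all genes in either direction. The median log2 fold change of the list was −0.50. The higher gene was SDC4, a syndecan, at 69.3 CPM in IMF against 40.6 CPM in SF (log2 fold change 0.77, SE 0.18, adjusted p = 0.0154, higher in 4 of 4 IMF clones). SDC3, another syndecan, stood at 16.8 ± 0.937 CPM in IMF against 70.3 ± 26.1 CPM in SF (log2 fold change −2.06, SE 0.24, adjusted p = 0.000576). GPC4, a glypican held on the membrane by a lipid anchor, stood at 62.2 ± 1.08 and 162.2 ± 20.5 CPM (log2 fold change −1.38, SE 0.10, adjusted p = 4.31e-05). CSPG4, known as NG2 and as a marker of pericytes, stood at 63.8 ± 5.11 and 209.4 ± 87.6 CPM (log2 fold change −1.71, SE 0.27, adjusted p = 0.00242). In each of the 3 called genes all 4 IMF clones lay below all 4 SF clones, a separation that picking called genes favours. Over the 13 genes of the list the groups did not overlap in 7, against 32.1% of all genes. GPC1 was the most abundant gene of the list, at 810.8 ± 23.1 and 789.6 ± 187.9 CPM (log2 fold change 0.04, adjusted p = 0.897).

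Among 12 genes that make, bind or cut hyaluronan, the chain to which versican binds, 1 was called, HYAL1, which encodes a lysosomal hyaluronidase. It stood at 6.80 ± 0.332 CPM in IMF against 15.8 ± 1.67 CPM in SF (log2 fold change −1.21, SE 0.10, adjusted p = 0.000104, lower in 4 of 4 IMF clones). CEMIP, which encodes a protein needed to break down hyaluronan, was the most abundant, at 1929 ± 56.4 CPM in IMF and at 232.0, 3539, 1921 and 1782 CPM in SF1 to SF4. Its log2 fold change was 0.05 (SE 0.61, adjusted p = 0.968), and SF1 was the low clone, as it was for DCN, LUM and OGN.

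Enzymes that make chondroitin and dermatan sulfate, the chains carried by decorin, biglycan and versican, were called in both directions. Of 16 genes, 4 were called lower, 1 higher and 11 were not called, so 31.2% were called, against 8.82% of all genes. By the adjusted p-value alone 8 were lower and 1 higher, against 25.8% of all genes in either direction. The median log2 fold change was −0.45. CHPF, a chain polymerizing factor with the highest mean of the list over the 8 clones, stood at 94.8 ± 1.78 CPM in IMF against 194.0 ± 44.4 CPM in SF (log2 fold change −1.03, SE 0.15, adjusted p = 0.00173). The chain synthase gene CHSY3 stood at 4.74 ± 0.648 and 15.1 ± 9.47 CPM (log2 fold change −1.67, SE 0.40, adjusted p = 0.0164). CHST11 and CHST12 encode enzymes that sulfate the chain. CHST11 stood at 6.77 ± 0.341 and 15.8 ± 6.42 CPM (log2 fold change −1.23, SE 0.28, adjusted p = 0.0135). CHST12 stood at 16.5 ± 1.92 and 36.5 ± 1.69 CPM (log2 fold change −1.14, SE 0.09, adjusted p = 9.8e-05). In these 4 genes, picked as called, all IMF clones lay below all SF clones. Over the 16 genes of the list the groups did not overlap in 9, against 32.1% of all genes. CHPF fell short of the fold threshold without SF1 and with scaling by library totals alone (log2 fold change −0.88 in both), as did CHST12 in the latter (−0.995). CHSY3 lost its call with a replicate block, at a log2 fold change of −1.47 and an adjusted p-value of 0.0545 in edgeR. CSGALNACT1, whose enzyme starts the chain, was the 1 gene called higher, at 3.26 ± 0.201 CPM in IMF against 0.902 ± 0.244 CPM in SF (log2 fold change 1.85, SE 0.24, adjusted p = 0.000972).

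The sugar linker and the other chain types were read in the same way. Of 7 enzymes that build the linker between protein and chain, edgeR and DESeq2 each called 0, and 3 were lower in IMF by the adjusted p-value alone, as by the unadjusted one. XYLT1, which adds the first sugar and had the highest mean of the list over the 8 clones, stood at 39.8 ± 3.49 CPM in IMF against 71.4 ± 23.2 CPM in SF (log2 fold change −0.84, SE 0.21, adjusted p = 0.0214). Without SF2 it passed both thresholds, whereas its adjusted p-value was 0.0572 without IMF1, 0.0563 without IMF4 and 0.0521 without SF4, in a range over the alternatives from 0.00154 to 0.0572. Of 15 heparan sulfate enzymes, edgeR called 1 higher and DESeq2 called 1 higher and 1 lower. By the adjusted p-value alone 3 were higher and 0 lower, and by the unadjusted one 3 were higher and 3 lower. The median of −0.07 is the same with the called gene at its bound. HS3ST1, a sulfotransferase, stood at 3.71 ± 0.414 CPM in IMF and had 0 to 2 counts in the SF clones, so it was at least 25.1-fold higher in IMF against 3 counts in each SF clone (adjusted p = 8.32e-05). HS3ST6, the most abundant of this list, stood at 238.1 ± 58.8 and 246.0 ± 50.3 CPM (log2 fold change −0.05, adjusted p = 0.896), a sign that turned under other settings. Of 4 keratan sulfate enzymes, edgeR and DESeq2 each called 0, with 1 lower in IMF at an unadjusted p-value under 0.05. That gene, B4GALT4, stood at 23.6 ± 2.49 and 33.5 ± 4.69 CPM (log2 fold change −0.50, SE 0.12, adjusted p = 0.0164, from 0.0012 to 0.0637 over the alternatives).

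Proteases that cut proteoglycans were called in both directions, 3 higher and 2 lower in IMF of 13 tested, or 38.5% against 8.82% of all genes. ADAMTS1, which cuts versican and aggrecan, stood at 57.5 ± 3.86 CPM in IMF against 13.2 ± 2.23 CPM in SF (log2 fold change 2.12, SE 0.12, adjusted p = 1.44e-05). ADAMTS15, of the same protease group, stood at 5.00 ± 0.461 CPM in IMF and had 5, 1, 3 and 3 counts in SF1 to SF4 (adjusted p = 4.99e-05), so few that its fitted log2 fold change of 5.04 (SE 0.37) is not a close measure. CTSL, a lysosomal cathepsin, stood at 3.61 ± 0.875 and 0.658 ± 0.345 CPM (log2 fold change 2.43, SE 0.39, adjusted p = 0.00254). The genes lower in IMF were ADAMTS20, another versican-cutting protease, and HTRA1, a secreted serine protease. ADAMTS20 stood at 17.1 ± 1.11 and 42.1 ± 14.9 CPM (log2 fold change −1.30, SE 0.24, adjusted p = 0.00474). HTRA1, the most abundant of the list, stood at 281.4 ± 16.0 and 651.4 ± 126.8 CPM (log2 fold change −1.21, SE 0.14, adjusted p = 0.000625). In each of these 5 genes, picked as called, all clones of one depot lay on one side of all clones of the other. Over the 13 genes of the list this held for 5, against 32.1% of all genes.

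**Figure D4:**
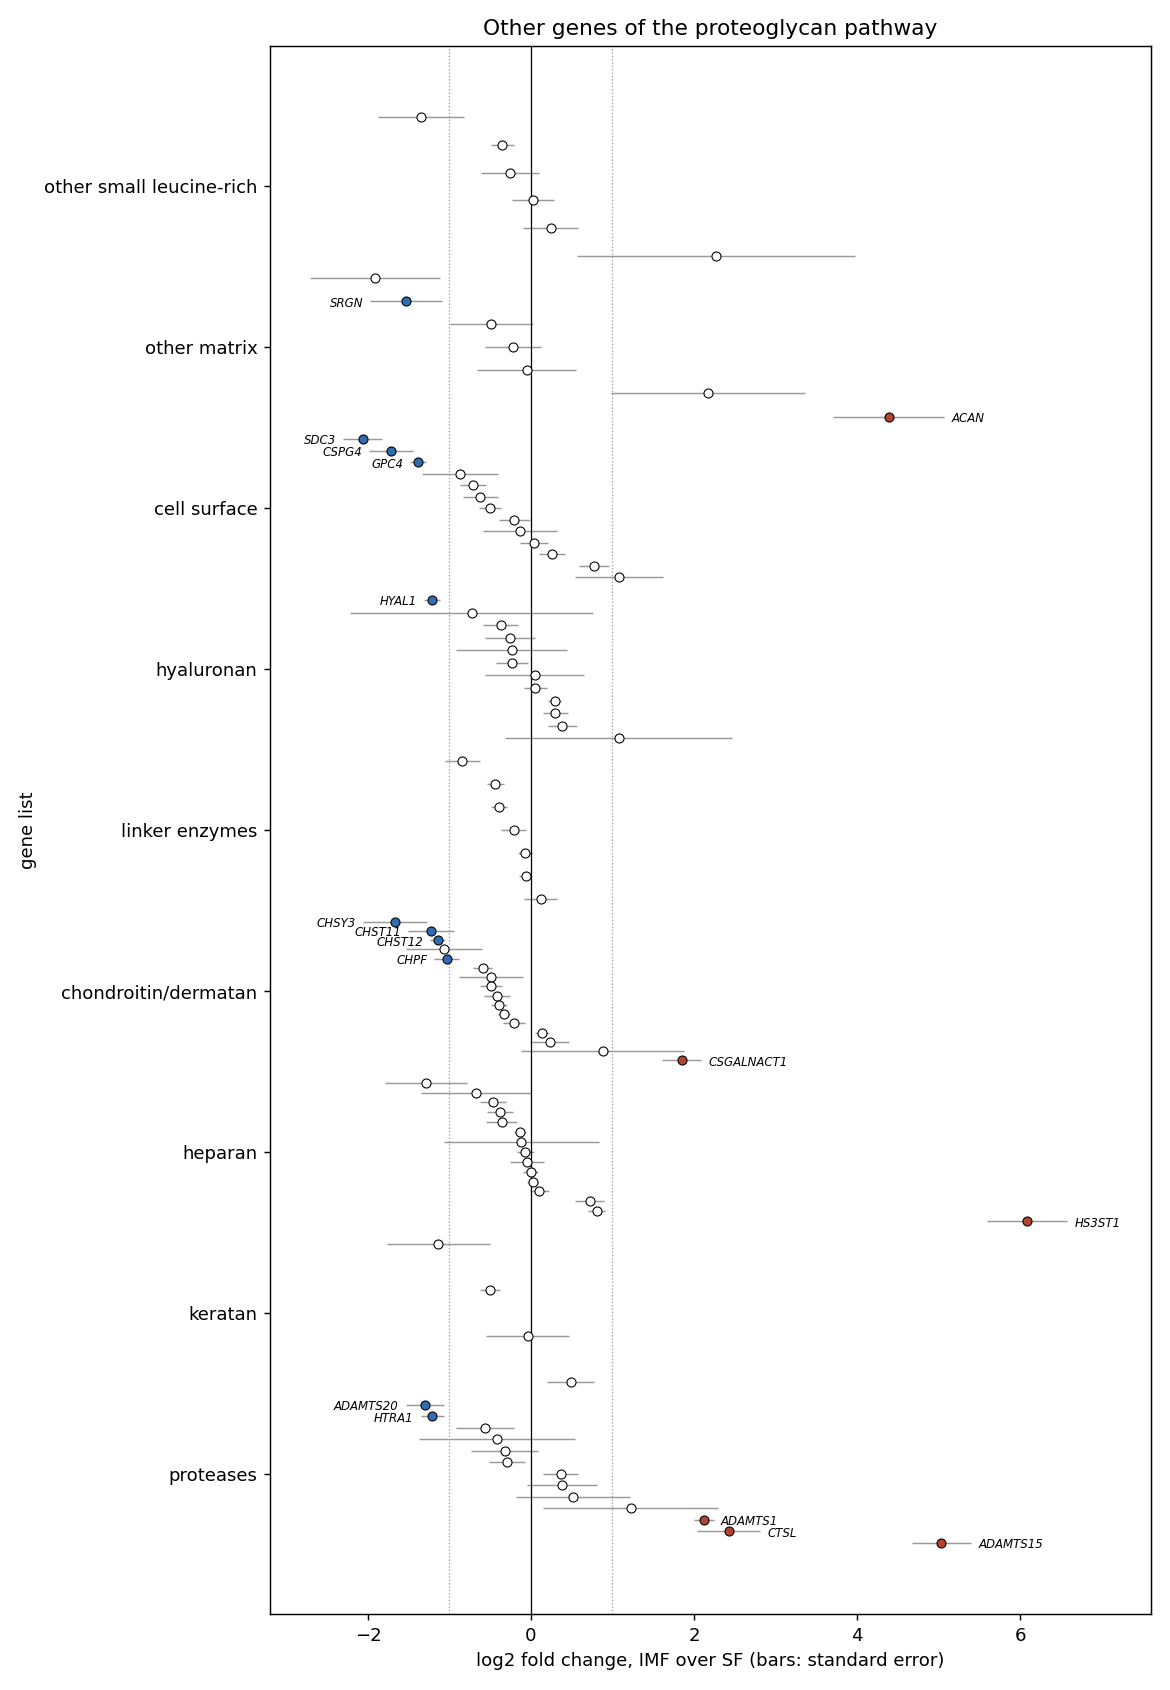
Log2 fold change, IMF over SF, of the 93 tested genes of the proteoglycan pathway, with bars for the standard error, grouped by list. Dotted lines mark the fold threshold, filled points are the 6 genes called higher (red) and the 11 called lower (blue) in IMF, and open points are the 76 genes not called. HS3ST1 is drawn at its fitted value, although its SF clones have 0 to 2 counts and the text gives its difference as a lower bound only.

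Markers of cells rich in small leucine-rich proteoglycans were also read. The 3 measured of 5 tendon cell markers summed to 76.1 to 91.5 CPM in the IMF clones and to 31.4, 176.6, 541.8 and 136.8 CPM in SF1 to SF4, with COL11A1 the most abundant and 1, SCX, called lower in IMF by edgeR and 2 by DESeq2. In this sum, in COL11A1 and in MKX, SF1 was the lowest clone and SF2 to SF4 were above all IMF clones. SCX went the other way within SF, at 7.34 CPM in SF1 and 3.85 to 4.79 CPM in SF2 to SF4, all above the IMF clones. The 3 measured of 6 cartilage markers summed to at most 8.21 CPM in any clone, with SOX9 the highest by the mean over the 8 clones and ACAN the 1 gene called. The 4 measured of 7 adipocyte markers summed to 15.6 to 17.4 CPM in the IMF clones and to 5.11 to 9.42 CPM in the SF clones, with FABP4 the highest by the mean over the 8 clones and called higher in IMF. No marker of these lists was at 3 counts or fewer in all 8 clones. The part of any of these cell types in the levels of the members was not tested.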

How the data were processed

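RNA-seq of 8 clones (4 IMF, 4 SF, grouped by the labels) was analysed. The authors trimmed reads (Trimmomatic 0.39), aligned them to ARS-UCD2.0 (HISAT2 in the methods, STAR 2.7.11a in the submitters' processing notes), counted them per gene (featureCounts 2.0.2) and deposited raw counts. How multi-mapped reads were counted is not given in the sources used here, and methods and labels differ on strandedness. The gene length deposited beside the counts (another unit, bases) was used for TPM. The authors' columns of group means, fold changes, p-values and calls were not used. A row with no gene name (0.0148% to 0.0209% of counts) was left out.

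Genes with at least 20 counts in all (532 others were left out) were tested in edgeR 4.0.16 (R 4.3.3) with TMM factors, a quasi-likelihood test (two-sided) and p-values adjusted by Benjamini-Hochberg, using the thresholds of the study's methods (adjusted p 0.05, log2 fold change 1). The standard error was the log2 fold change over the root of F. CPM used TMM-scaled totals, and log2 CPM a prior count of 2. The script was tested on simulated data. P-values set the difference between the groups against the spread between clones, which the test takes as common to both groups. No pair of clones in a group matched within sampling noise. Of the gene IDs, 14201 were found in RefSeq's list for ARS-UCD2.0. No sequence is printed.

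The members and lists were chosen with earlier results of these data known. Genes named were the members, in each list up to 4 called genes per direction by mean CPM and its most abundant gene, called neighbours, the 2 genes most like a called member, and marker genes that were most abundant or at 3 counts or fewer. OMD, CENPP, SDC4, CDH5, ABCC9, MYH11, MCAM, CD34, PPARG, THY1, SCX, MKX and the ratios and deviations between clones were singled out after their values were seen. Alternatives were DESeq2 1.42.0, RLE size factors, library totals alone, no filter, at least 10 counts in 4 clones, a replicate block and leaving out each clone.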

Additional observations from a re-analysis of the deposited data

Results flagged for a closer look

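Of 80 groups of 4 values checked for a clone far from the others of its depot, 5 had one, where chance gives about 1 in 20. In SF1, the 10 members took 0.676% of all counts, against a median of 0.405% over the SF clones. COL18A1 stood at 101.5 CPM in SF1, against a median of 3.49 CPM, HYAL1 at 18.3 CPM, against 15.0 CPM, and LOC101907241 at 4.31 CPM, against 32.6 CPM. ADAMTS15 stood at 4.32 CPM in IMF2, against a median of 5.18 CPM over the IMF clones. ASPN in SF1 was not among them, because the other SF clones were themselves spread.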

How the results depend on the processing

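Under the alternatives, 207 values of the main results kept their call by the adjusted p-value and fold thresholds together or, where there was no test, stayed within the spread between clones. Among these, the summed level turned from −0.16 to 0.07 without SF1, and the adjusted p-value of BGN fell below 0.05 without SF4. Of the others, 3 counts moved by over 1.5 times, 7 log2 fold changes changed sign, 2 gained a call and 1 lost it. For the other named genes, 369 values kept their call in the same way, although the adjusted p-values of B4GALT4 and XYLT1, which were not called, rose past 0.05 in some alternatives, 9 changed sign, 2 gained a call and 12 lost it. Scaling by library totals alone moved the median over all genes tested from a log2 fold change of −0.03 to 0.12 and the share of called genes that were higher in IMF from 54.2% (877 higher, 741 lower) to 66.7% (1078 higher, 539 lower). No member changed direction under it, also relative to that shift. The adjusted p-value of ASPN ranged from 1.88e-08 to 0.0511 over the 14 alternatives and was below 0.05 in 13. That of FMOD ranged from 3.34e-06 to 0.0215. The clones share replicate numbers, but same-numbered clones deviated together little (correlations 0.041, −0.009, 0.048 and 0.139), so the numbers were not taken as pairs. With a replicate block the log2 fold change of ASPN was −3.96 (adjusted p = 0.0511 in edgeR), the number of members lower in IMF past the thresholds was 0, CHSY3 had an adjusted p-value of 0.0545, and 1489 genes were called in all.

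With each clone left out in turn, the number of members called higher was 0 to 1, the 1 being DCN without SF2, and the number called lower was 1 to 2, with FMOD joining ASPN without SF1. The log2 fold change then ranged from 0.48 to 1.19 for DCN, −1.10 to −0.82 for FMOD, −0.092 to 0.43 for LUM, −0.046 to 0.26 for PRELP, −0.020 to 0.59 for OGN, −0.27 to 0.36 for PODN and −0.56 to 0.21 for HSPG2. It ranged from −0.32 to 0.56 for CEMIP, −0.50 to 0.14 for ECM2, −0.087 to 0.13 for GPC1 and −0.23 to 0.058 for HS3ST6, which was 0.10 with library totals alone. The cause of these changes was not tested. With 4 clones a group and an SF spread as wide as in HSPG2 or DCN, 95% intervals span more than a doubling, so smaller differences in these genes could not be resolved.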

Other observations

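In the lists, SF1 was the lowest of the 8 clones in 17 of the 60 genes with a mean of at least 10 CPM, or 28.3%, against 27.1% of all genes at that level, and the highest in 19, or 31.7%, against 19.0%. Among the genes with SF1 lowest that the naming rule did not select, 2 were singled out after their values were seen, and neither passed the test. TGFBR3 encodes betaglycan, a cell surface proteoglycan and co-receptor for transforming growth factor beta. It stood at 80.9 to 84.9 CPM in the IMF clones and at 10.1, 84.4, 41.6 and 20.8 CPM in SF1 to SF4, so that SF2 lay at the IMF level and the other SF clones below it (log2 fold change 1.09, adjusted p = 0.18). SULF2 encodes an enzyme that removes sulfate from heparan sulfate chains outside the cell. It stood at 19 to 20.3 CPM in the IMF clones and at 9.34, 74.6, 63.9 and 42.3 CPM in SF1 to SF4, so that SF1 lay below all IMF clones and the other SF clones above them (log2 fold change −1.29, adjusted p = 0.0986), as was also so for SULF1.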
